A study of Homo sapiens with 18 samples.

Results

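The respiratory chain genes were the rows of the table that encode subunits of the electron transport complexes and of ATP synthase: the 13 protein-coding genes of mitochondrial DNA and 59 nuclear genes, chosen by their symbols. They made up 72 of the 56269 genes in the table. Of the nuclear genes, 37 carried complex I symbols (NDUFA, NDUFB, NDUFC, NDUFS or NDUFV), 4 encoded complex II, 9 complex III, 7 complex IV and 2 complex V. NDUFA4 was grouped by its symbol with complex I, although its protein is now placed in complex IV. Expression was tested for 71 of them, since NDUFA7 had a mean normalised read count below the minimum of 10. NDUFV2 and NDUFA13 were tested but were also low, with means of 10.1 and 41.9.

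RNA was sequenced from IMR90 cells, human lung fibroblasts in culture, in 6 groups of 3 libraries. For 6 h the medium held either PBS or hyaluronan (HA) at 20 μg/ml, purified from naked mole-rat skin fibroblasts. In cNSF-HA the polymer was mixed with heat-inactivated hyaluronidase and kept its length, and in fNSF-HA it was partly fragmented by the active enzyme before heat inactivation. After removal of HA, the groups named PBS + tBHP, cNSF-HA + tBHP and fNSF-HA + tBHP received 200 μM tert-butyl hydroperoxide (tBHP), an oxidant, for 1 h and were collected 6 h after its start, while the other groups were collected after the pre-incubation, so that tBHP and collection time cannot be told apart. All cells were of this 1 fibroblast line. The study describes its replicates as biological, without saying how the cultures of these libraries were set up.

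The respiratory chain passes electrons from NADH (complex I) and succinate (complex II) through complexes III and IV to oxygen, and ATP synthase (complex V) uses the resulting proton gradient. Complex II is built from nuclear genes alone, while the other complexes combine nuclear subunits with subunits encoded in mitochondrial DNA. The mitochondrial heavy strand is transcribed into a long precursor that is cut at the tRNAs into rRNAs and mRNAs, and MT-ND6 is the protein-coding gene read from the light strand. Nuclear factors NRF1, GABP (an ETS protein) and YY1 are known to bind promoters of many nuclear subunit genes.

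Promoter sequences were found for 48 of the 59 nuclear genes in RefSeq (GRCh38.p14), in windows from 250 bases before to 50 after the gene start. Matches to GCATGCGC (NRF1), CCGGAAG (ETS/GABP) and AAGATGG (YY1) were counted on either strand. The NRF1 letters were present in 18.75% of the 48 member promoters and in 5.67% of the promoters of all tested genes. The ETS/GABP letters were present in 27.1% against 19.9%, and the YY1 letters in 25% against 7.72%. The 180 bases before the start are shown for a gene that fell after tBHP (SDHD) and for 3 that rose (NDUFB4, UQCRH and COX6A1), 5′ to 3′ on the gene's strand, with NRF1 or ETS/GABP matches in capitals. The windows are chr11:112086693-112086872 for SDHD, chr3:120596156-120596335 for NDUFB4, chr1:46303518-46303697 for UQCRH and chr12:120437933-120438112 for COX6A1, all on the plus strand. They end before the RefSeq start. The gene coordinates given elsewhere are from GENCODE v29, whose start lies inside each of these windows (chr11:112086773 for SDHD).
SDHD: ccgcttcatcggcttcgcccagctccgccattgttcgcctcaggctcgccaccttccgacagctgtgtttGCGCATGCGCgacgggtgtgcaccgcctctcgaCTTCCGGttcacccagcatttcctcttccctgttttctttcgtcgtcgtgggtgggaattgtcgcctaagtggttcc
NDUFB4: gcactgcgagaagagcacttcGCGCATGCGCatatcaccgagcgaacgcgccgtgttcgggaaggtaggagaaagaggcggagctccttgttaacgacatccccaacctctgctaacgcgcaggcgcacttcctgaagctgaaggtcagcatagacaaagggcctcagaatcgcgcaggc
UQCRH: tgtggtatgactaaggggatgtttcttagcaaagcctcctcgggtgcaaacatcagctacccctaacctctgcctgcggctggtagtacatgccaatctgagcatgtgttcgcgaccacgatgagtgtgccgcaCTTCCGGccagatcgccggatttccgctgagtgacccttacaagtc
COX6A1: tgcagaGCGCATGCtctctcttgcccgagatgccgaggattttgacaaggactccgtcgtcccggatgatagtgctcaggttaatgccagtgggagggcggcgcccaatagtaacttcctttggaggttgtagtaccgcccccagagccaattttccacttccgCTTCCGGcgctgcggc
These 4 were chosen because they hold such matches. The 180 bases before NDUFB6, which fell, and NDUFB10, which rose, held none. The 9 members with an NRF1 match had a median log2 change of 0.33 after tBHP in PBS cells, and the 38 without had 0.15. For ETS/GABP the medians were 0.29 (n = 13) and 0.15 (n = 34), and for YY1 0.11 (n = 11) and 0.22 (n = 36). In cNSF-HA cells the medians with and without a match were 0.34 and 0.34 for NRF1, 0.40 and 0.33 for ETS/GABP and 0.32 and 0.34 for YY1, and in fNSF-HA cells 0.19 and 0.12, 0.15 and 0.12, and 0.067 and 0.15. A match describes the letters only, and binding was not measured.

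Between 20261103 and 26287660 reads were counted on genes per library. The deposited values are these reads divided by a DESeq2 size factor and are called normalised read counts here. Differences were tested with limma on log2(value + 1), which understates changes of low genes, and adjusted p-values (Benjamini-Hochberg over 13686 genes) below 0.05 were called. The 18 libraries were fitted together. The median SD between replicates was 0.067 on the log2 scale without tBHP and 0.17 after it. After tBHP, the libraries fNSF-HA + tBHP 2 and cNSF-HA + tBHP 3 stood apart: the 10% of genes with the highest GC content deviated from the mean of the 9 tBHP libraries by a median of -0.79 and 0.33 on the log2 scale, with 0.31 in PBS + tBHP 1 and between -0.20 and 0.17 in the other libraries. All 8 fibroblast markers were present, and PECAM1, CDH5, KDR, PTPRC and CD3E had medians of 0 over the libraries. The other endothelial, leukocyte and smooth muscle markers had medians of 13.4 (VWF), 4.07 (CD68), 1.85 (CD14), 17.5 (DES) and 2.03 (MYH11). EPCAM and CDH1 had medians of 2.88 and 1.91, while the summed epithelial list, mostly KRT8 and KRT19, ranged from 510.4 to 570 without tBHP and from 315 to 619 after it. Fewer cells with a transcript and less transcript per cell cannot be told apart in these bulk libraries.

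The mitochondrial mRNAs were by far the more abundant. Per kilobase of exon, the mean normalised read count was 129361 for MT-CO2, the highest, followed by 75546 for MT-ND4 and 65087 for MT-CO1, while MT-ND6 was the lowest of the 13 at 2282. Among the nuclear genes, ATP5B, the catalytic beta subunit of ATP synthase, had the highest level at 6841 per kilobase. NDUFS5 led nuclear complex I at 6258, UQCRH complex III at 1684, COX5A complex IV at 1156 and SDHB complex II at 650.4. The length used was that of all annotated exons of a gene together, not of 1 mRNA, so these ranks depend in part on the annotation. COX4I1 had a higher mean count than COX5A (4445 against 1631) but 927.6 per kilobase. In PBS cells the mitochondrial mRNAs held 2.40% ± 0.01 of the reads on genes and the 59 nuclear genes 0.374% ± 0.008 (SD, n = 3).

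The mitochondrial mRNAs responded to tBHP gene by gene. MT-ND1 and MT-ND2, the complex I genes next to the rRNA genes, rose by 1.6 to 1.7 times, MT-CO1 and MT-CO3 of complex IV fell, and MT-ND6 fell the most of the 13. In PBS cells, 4 of the 13 genes rose and 5 fell, beside 24.2% and 26.9% of all genes tested. In cNSF-HA cells 3 rose and 5 fell (24% and 26.8% of all genes), and in fNSF-HA cells 5 rose and 5 fell (19.2% and 22.7%). MT-ND1, MT-ND2 and MT-CO2 rose and MT-ND6, MT-CO1, MT-CO3, MT-ND4L and MT-ATP8 fell in every pre-incubation. Of these calls, that of MT-ATP8 held in 15 of 18 alternatives in cNSF-HA and 10 of 18 in fNSF-HA cells, and that of MT-ND4L in 14 of 18 in fNSF-HA cells. The median log2 change of the 13 was 0.01, -0.07 and 0.01 in PBS, cNSF-HA and fNSF-HA cells, against 0.00, -0.00 and -0.03 for all genes.

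**Figure D1:**
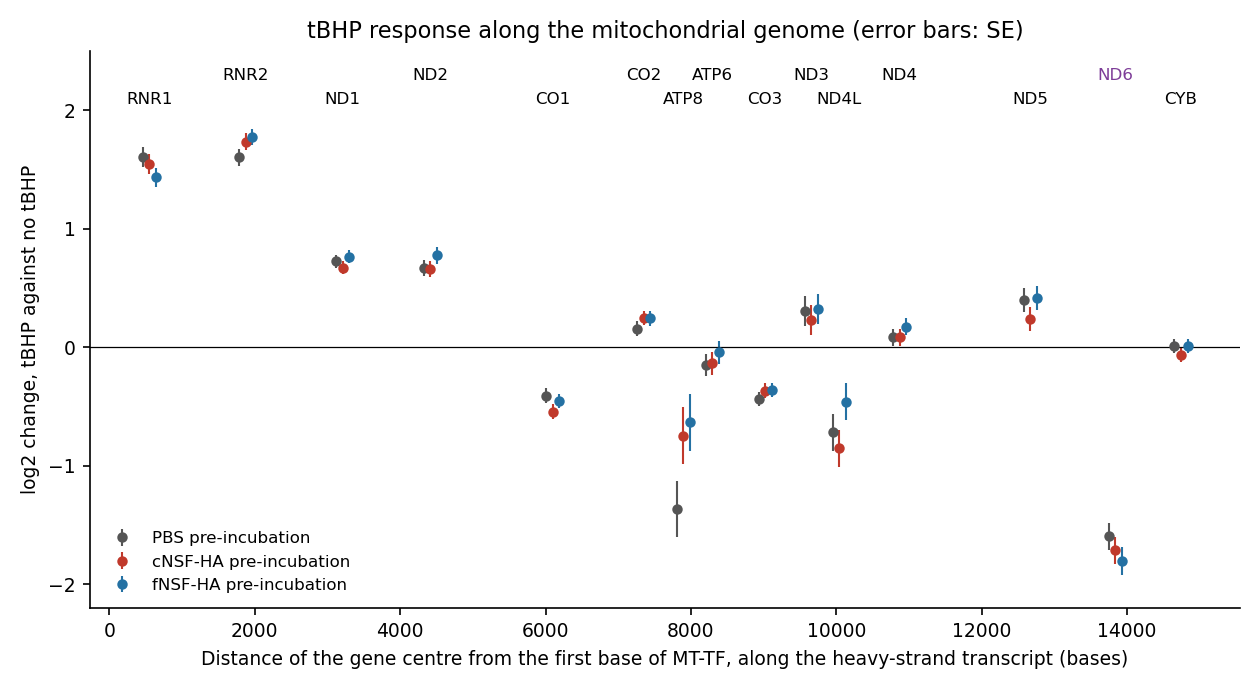
The log2 change after tBHP (y axis) of the 13 mitochondrial protein-coding genes and the 2 rRNAs is plotted against the distance of the gene centre from the first base of MT-TF in bases (x axis), in PBS (grey), cNSF-HA (red) and fNSF-HA (blue) cells, with SE as error bars. The rRNAs, MT-ND1 and MT-ND2 lie above 0 and MT-ND6 (purple name, light strand) lies lowest, at -1.60 in PBS cells.

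The normalised read count of MT-ND1 (chrM:3307-4262, plus strand), a core subunit of complex I, was 21879, 21427 and 21507 in the PBS libraries and 34967, 35816 and 36355 in the PBS + tBHP libraries. The groups did not overlap, and the log2 change was 0.72 (SE 0.05, limma adjusted p = 7.5e-09). With HA pre-incubation the change was 0.67 and 0.76 (cNSF-HA and fNSF-HA, SE 0.05, adjusted p = 2.46e-08 and 4.59e-09). MT-ND2 (chrM:4470-5511), its neighbour, changed by 0.67, 0.66 and 0.77 in PBS, cNSF-HA and fNSF-HA cells (SE 0.07). Both genes were called in each of 18 alternative analyses of every response.

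The remaining complex I mRNAs split. MT-ND5 was 41102 ± 498 in PBS and 54172 ± 2215 in PBS + tBHP cells (log2 change 0.40, SE 0.10, adjusted p = 0.00323). MT-ND3 and MT-ND4 had log2 changes of 0.30 and 0.08 and were not called in PBS cells (adjusted p = 0.0529 and 0.357). MT-ND4L fell from 11917 ± 188 to 7263 ± 572 (log2 change -0.72, SE 0.16, adjusted p = 0.000936), and MT-ND4, with which it shares an mRNA and 7 bases of reading frame, was not called. MT-ND4L reads per 100 MT-ND4 reads were 11.4, 11.7 and 11.98 in PBS libraries and 7.27, 6.88 and 6.07 after tBHP. MT-ND6 (chrM:14149-14673, minus strand) was 1595, 1890 and 1799 in PBS libraries and 522, 682 and 549 after tBHP, with no overlap. Its log2 change was -1.60, -1.72 and -1.81 in PBS, cNSF-HA and fNSF-HA cells (SE 0.12, adjusted p = 5.18e-09, 2.29e-09 and 1.18e-09). The library kit does not keep the strand and selects poly(A) RNA, so that reads of the opposite strand within MT-ND6 can count toward it.

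For complex III, MT-CYB, cytochrome b, was 30180 ± 200 in PBS and 30431 ± 1214 in PBS + tBHP cells and was not called in any pre-incubation. Its direction turned with quantile normalization (log2 change -0.29 in PBS cells). Of the complex IV core subunits, MT-CO1 (chrM:5904-7445) was 115628, 117070 and 114601 in PBS libraries and 82057, 91293 and 88409 after tBHP. The fall was 0.41 on the log2 scale in PBS cells, where adjusted p = 3.06e-05, and the values were -0.54 in cNSF-HA and -0.46 in fNSF-HA cells (SE 0.06). MT-CO3 changed by -0.43, -0.37 and -0.37 (SE 0.06). MT-CO2, in contrast, rose from 83042 ± 884 to 92622 ± 5562 in PBS cells (log2 change 0.16, SE 0.06, adjusted p = 0.0412), a call that was lost in 7 of the 18 alternatives. Thus mRNAs of 1 complex changed in opposite directions.

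For complex V, MT-ATP8 was 3694, 4200 and 4267 in PBS libraries and 2355, 1484 and 1102 after tBHP, with no overlap. Its log2 change was -1.37 in PBS (SE 0.24, adjusted p = 0.000118), -0.75 in cNSF-HA and -0.64 in fNSF-HA cells. The differences between these responses were not called (cNSF-HA and fNSF-HA against PBS, adjusted p = 0.999 and 0.667). MT-ATP6, which shares its mRNA, had a log2 change of -0.15 in PBS cells (adjusted p = 0.201). The 207 bases of MT-ATP8 overlap MT-ATP6 by 46 bases (chrM:8527-8572, plus strand), shown because a read that covers both genes cannot be told apart between them.
MT-ATP8 and MT-ATP6 overlap: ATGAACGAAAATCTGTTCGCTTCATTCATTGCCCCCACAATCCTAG
MT-ATP8 reads per 100 MT-ATP6 reads were 10.8, 12.1 and 12.7 in PBS libraries and 9.07, 4.43 and 3.30 in PBS + tBHP libraries.

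Ratios within a library do not depend on the scaling between libraries. They were chosen after their values were seen and are descriptions. MT-ND1 reads per 100 MT-CO1 reads were between 17.9 and 18.9 in the 9 libraries without tBHP and between 39.2 and 45.2 in the 9 with it. MT-ND2 reads per 100 MT-CO3 reads were between 40.2 and 42.5 without tBHP and between 79.7 and 95.0 after it. MT-ND6 reads per 100 MT-CYB reads were between 5.25 and 6.61 without tBHP and between 1.67 and 2.16 after it. In none of these ratios did the libraries overlap. The rRNAs of the same precursor rose further: MT-RNR2 was 43995 ± 1173 in PBS and 133493 ± 8544 in PBS + tBHP cells (log2 change 1.60, SE 0.07), and MT-RNR1 rose by 1.60 (SE 0.08). These rRNA reads are those left after poly(A) selection. MTCO1P12, a nuclear copy of MT-CO1, had a log2 change of -0.90 in PBS cells (SE 0.18), and reads of such copies and of the mitochondrial genes may be exchanged.

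The share of summed mitochondrial mRNA did not separate the libraries with and without tBHP in PBS and fNSF-HA cells. In cNSF-HA cells it was lower after tBHP. The mitochondrial share of reads was 2.41%, 2.40% and 2.39% in PBS libraries and 2.11%, 2.42% and 2.41% after tBHP (exact permutation test, two-sided p = 0.9, with 0.1 the smallest p that 3 against 3 allows). In cNSF-HA cells the share was 2.33% ± 0.05 before and 2.19% ± 0.02 after tBHP, with no overlap (exact permutation p = 0.1). In fNSF-HA cells it was 2.39% ± 0.03 and 2.45% ± 0.26 (exact permutation p = 0.7). Without 1 library, the change ran from -0.142 to 0.013 percentage points in PBS, -0.165 to -0.120 in cNSF-HA and -0.072 to 0.185 in fNSF-HA cells. The summed share of the nuclear genes was 0.374% ± 0.008 and 0.390% ± 0.008 in PBS cells, with no overlap (exact permutation p = 0.1). It was 0.378% ± 0.007 and 0.438% ± 0.052 in cNSF-HA cells (exact permutation p = 0.1) and 0.372% ± 0.004 and 0.397% ± 0.027 in fNSF-HA cells (exact permutation p = 0.3), each SD over n = 3. Without 1 library, the rise in cNSF-HA cells ran from 0.030 to 0.077 percentage points, and cNSF-HA + tBHP 3 had the highest share (0.498%).

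Most changes of the nuclear genes were small. In PBS cells 13 of the 58 tested (22.4%) rose and 8 (13.8%) fell, beside 24.2% and 26.9% of all genes. In cNSF-HA cells 29 rose and 3 fell (50% and 5.17%), beside 24% and 26.8%, and in fNSF-HA cells 13 rose and 3 fell (22.4% and 5.17%), beside 19.2% and 22.7%. The percentage that rose was thus near that of all genes in PBS and fNSF-HA cells. The median log2 change was 0.13, 0.31 and 0.10 in PBS, cNSF-HA and fNSF-HA cells. NDUFB9, NDUFS5, COX4I1, NDUFB4, NDUFA1, NDUFB10, UQCRH, NDUFA6 and COX6A1 rose and SDHD, NDUFC2 and NDUFB6 fell in all 3. By limma, 21 of the 58 were called in none, although some of these were called under alternatives (NDUFB7 in 6 and COX6C in 4 of 18 in cNSF-HA cells). The share of all genes called in all 3 responses or in none was not counted. These lists, like that of the mitochondrial genes, are therefore descriptions only.

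The larger number in cNSF-HA cells rested in part on 1 library. The median log2 change of the nuclear genes by tBHP library was between 0.11 and 0.16 in PBS, 0.15, 0.20 and 0.51 in cNSF-HA and 0.14, 0.00 and 0.30 in fNSF-HA cells. The highest value was in cNSF-HA + tBHP 3 and the lowest in fNSF-HA + tBHP 2, the libraries that also had the highest and the lowest high-GC deviation (0.33 and -0.79). Within each pre-incubation the 3 tBHP libraries had the same order in both values. PBS + tBHP 1 had the highest of both among the PBS + tBHP libraries. Its high-GC deviation of 0.31 was near that of cNSF-HA + tBHP 3, but its nuclear median was 0.16. The cause was not tested. Without cNSF-HA + tBHP 3, 20 rose and 5 fell in cNSF-HA cells (median 0.17), beside 21.2% and 24.1% of all genes. Without fNSF-HA + tBHP 2, 26 rose and 4 fell in fNSF-HA cells (median 0.22), beside 24.4% and 26.2%. With both left out, the numbers that rose were 22 in PBS, 27 in cNSF-HA and 32 in fNSF-HA cells, beside 30.7%, 26.9% and 26.9% of all genes. With the trend of the changes over GC content and length removed, 18 rose in PBS, 29 in cNSF-HA and 16 in fNSF-HA cells, beside 28.3%, 28.2% and 27.5% of all genes.

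**Figure D2:**
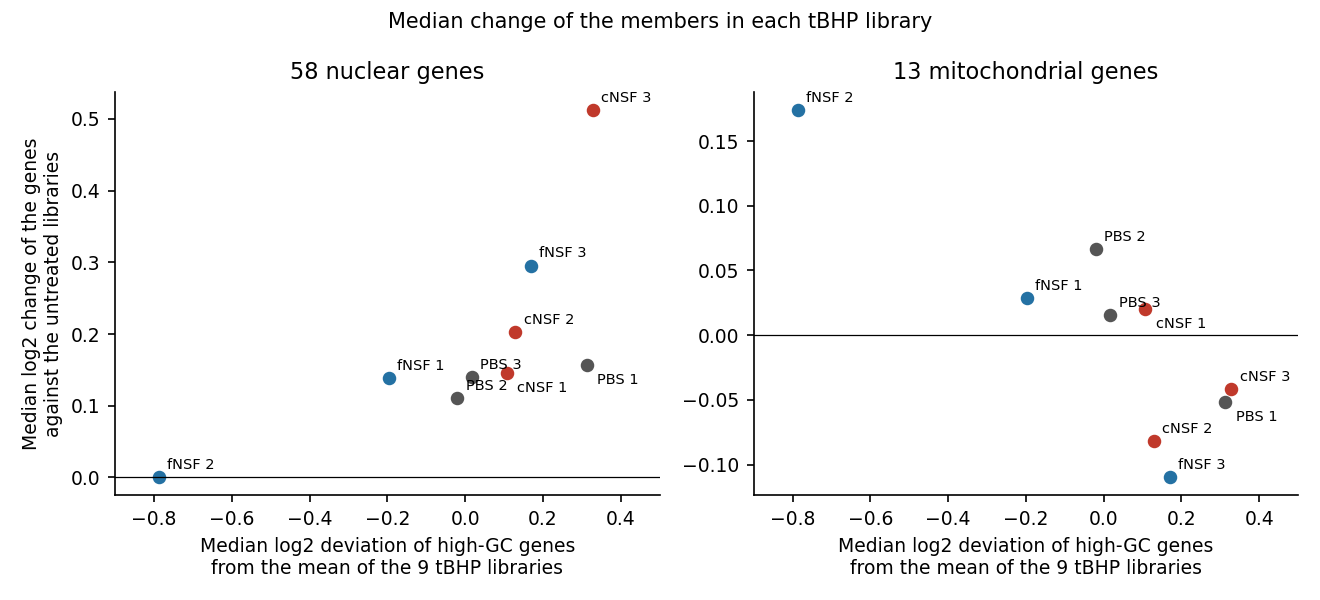
Each point is 1 of the 9 tBHP libraries: the median log2 change of the 58 nuclear (left) or 13 mitochondrial genes (right) against the mean of the untreated libraries of the same pre-incubation (y axis), over the median log2 deviation of the genes with the highest GC content (x axis). The nuclear medians run from 0.00 in fNSF-HA + tBHP 2 to 0.51 in cNSF-HA + tBHP 3.

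In nuclear complex I, 9 of 36 genes rose, 5 fell and 22 were not called in PBS cells (median 0.19), beside 24.2% of all genes that rose and 26.9% that fell, so the number that rose was near that of all genes. The largest rises among the called genes were those of NDUFS5 and NDUFB10, accessory subunits of the membrane arm. NDUFS5 (chr1:39026318-39034636, plus strand) was 2890, 2788 and 2735 in PBS libraries and 3516, 3781 and 4071 after tBHP. Every tBHP library was higher than every PBS library, and the log2 change was 0.43 (SE 0.09, adjusted p = 0.000677). NDUFB10 rose from 1008 ± 49.5 to 1354 ± 76.3 (log2 change 0.43, SE 0.11, adjusted p = 0.00391), a call that was lost when the GC trend was removed (0.14). NDUFB4, whose promoter holds the NRF1 letters, changed by 0.33, 0.34 and 0.35 in the 3 pre-incubations (SE 0.07).

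The largest falls among the called nuclear complex I genes were those of NDUFC2 and NDUFA5. NDUFC2 (chr11:78068304-78080219, minus strand), an accessory subunit of the membrane arm, was 422, 446 and 517 in PBS libraries and 152, 225 and 187 after tBHP. The groups did not overlap, and the log2 change was -1.30 (SE 0.19, adjusted p = 2.34e-05). In cNSF-HA cells it was 363 ± 51.6 and 238 ± 87.2 (log2 change -0.66, SE 0.19, adjusted p = 0.00864), and in fNSF-HA cells 466 ± 15.6 and 266 ± 40.0 (-0.82, adjusted p = 0.0023). The gene shares 18.1% of its exon bases with other genes, mainly with the readthrough gene NDUFC2-KCTD14, so its count may be incomplete. NDUFA5, an accessory subunit of the matrix arm with a GC content of 35.04%, fell from 602 ± 39.1 to 439 ± 86.0 in PBS cells (log2 change -0.47, SE 0.15, adjusted p = 0.0141), but the call was lost without PBS + tBHP 1 (-0.30) and the sign turned when the GC trend was removed (0.09). NDUFB6 fell in all 3 pre-incubations (-0.39, -0.31 and -0.44, SE 0.10), a call that held in 17 of 18 alternatives in PBS and 14 of 18 in cNSF-HA cells.

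In complex II, 1 of the 4 genes rose and 1 fell in PBS cells, near the 24.2% and 26.9% of all genes. SDHD (chr11:112086773-112120013, plus strand), a membrane anchor of succinate dehydrogenase, was 663, 744 and 733 in PBS libraries and 256, 381 and 334 after tBHP. All tBHP libraries were below all PBS libraries, and the log2 change was -1.15 (SE 0.14, adjusted p = 3.12e-06). It was -0.88 in cNSF-HA cells (SE 0.14, adjusted p = 6.44e-05) and -0.65 in fNSF-HA cells (SE 0.14, adjusted p = 0.0012), and SDHD was called in each of 18 alternatives in every response. SDHA, the flavoprotein subunit, rose from 2386 ± 45.7 to 2946 ± 271 in PBS cells (log2 change 0.30, SE 0.08, adjusted p = 0.0051). SDHB, the iron-sulfur subunit, and SDHC, the other anchor, had log2 changes of -0.04 and -0.03 (adjusted p = 0.694 and 0.704). SDHD reads per 100 SDHB reads were 41.1, 47.2 and 49.0 in PBS libraries and 18.01, 24.4 and 21.2 after tBHP.

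**Figure D3:**
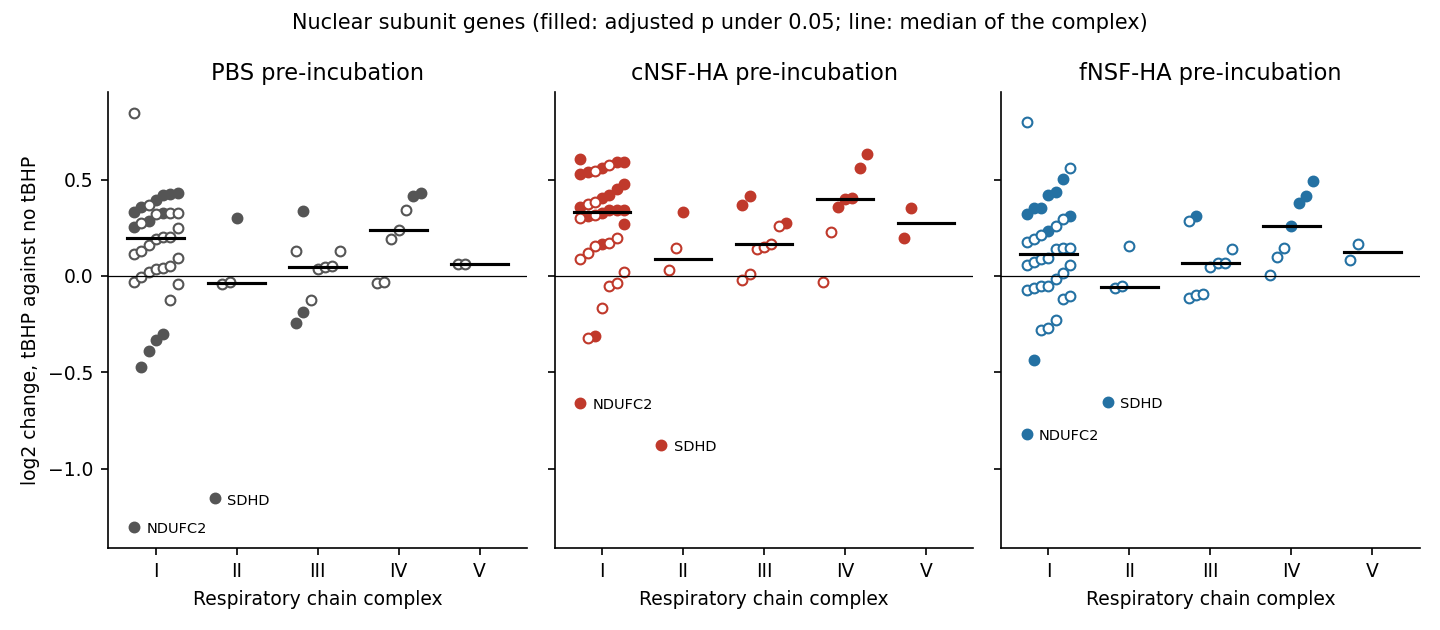
Each point is 1 of the 58 nuclear genes, placed by complex (x axis) and log2 change after tBHP (y axis), with 1 panel per pre-incubation. Filled points passed the limma test, lines are medians, and SDHD and NDUFC2 lie lowest in every panel, while NDUFV2, with a mean of 10.1, lies highest in PBS and fNSF-HA cells without a call.

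In complex III, 1 of 9 genes rose and 2 fell in PBS cells (median 0.05), beside 24.2% and 26.9% of all genes. By edgeR 1 was called as higher and 0 as lower, beside 29.7% and 23.5% of all genes. UQCRH, the hinge protein, was 2011, 2035 and 2055 in PBS libraries and 2426, 2510 and 2796 after tBHP (log2 change 0.34, SE 0.09, adjusted p = 0.0031). UQCRFS1, the Rieske iron-sulfur protein, changed by -0.24 (SE 0.09, adjusted p = 0.0358) and UQCRC2, a core protein, by -0.19 (SE 0.06, adjusted p = 0.0158), calls that held in 11 and 15 of 18 alternatives. In HA-treated cells neither was called, but the differences between the responses were not called either.

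In complex IV, 2 of 7 nuclear genes rose and none fell in PBS cells, where 5 passed at an unadjusted p below 0.05, edgeR called 5 as higher and none as lower, and DESeq2 called 2 and none. Of all genes, limma called 24.2% as higher and 26.9% as lower, so the number that rose by limma was near that of all genes. An unadjusted p below 0.05 was found for 56.8% of all genes. Of these genes, edgeR called 29.7% as higher and 23.5% as lower, and DESeq2 called 25.3% and 27.1%. COX4I1, a subunit that binds nucleotides, was 3812, 3675 and 3577 in PBS libraries and 5237, 4707 and 4989 after tBHP (log2 change 0.43, SE 0.10, adjusted p = 0.00151). COX6A1 was 721, 698 and 688 and rose to 764, 984 and 1091 (log2 change 0.41, SE 0.12, adjusted p = 0.00612). COX5A had a log2 change of 0.24 (adjusted p = 0.0571) and COX7C of -0.03 (adjusted p = 0.812). Of the mitochondrial genes of the same complex, MT-CO2 rose and MT-CO1 and MT-CO3 fell. For complex V, ATP5B and ATP5O, the stalk subunit also called OSCP, had log2 changes of 0.06 and 0.06 in PBS cells (adjusted p = 0.39 and 0.695).

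**Figure D4:**
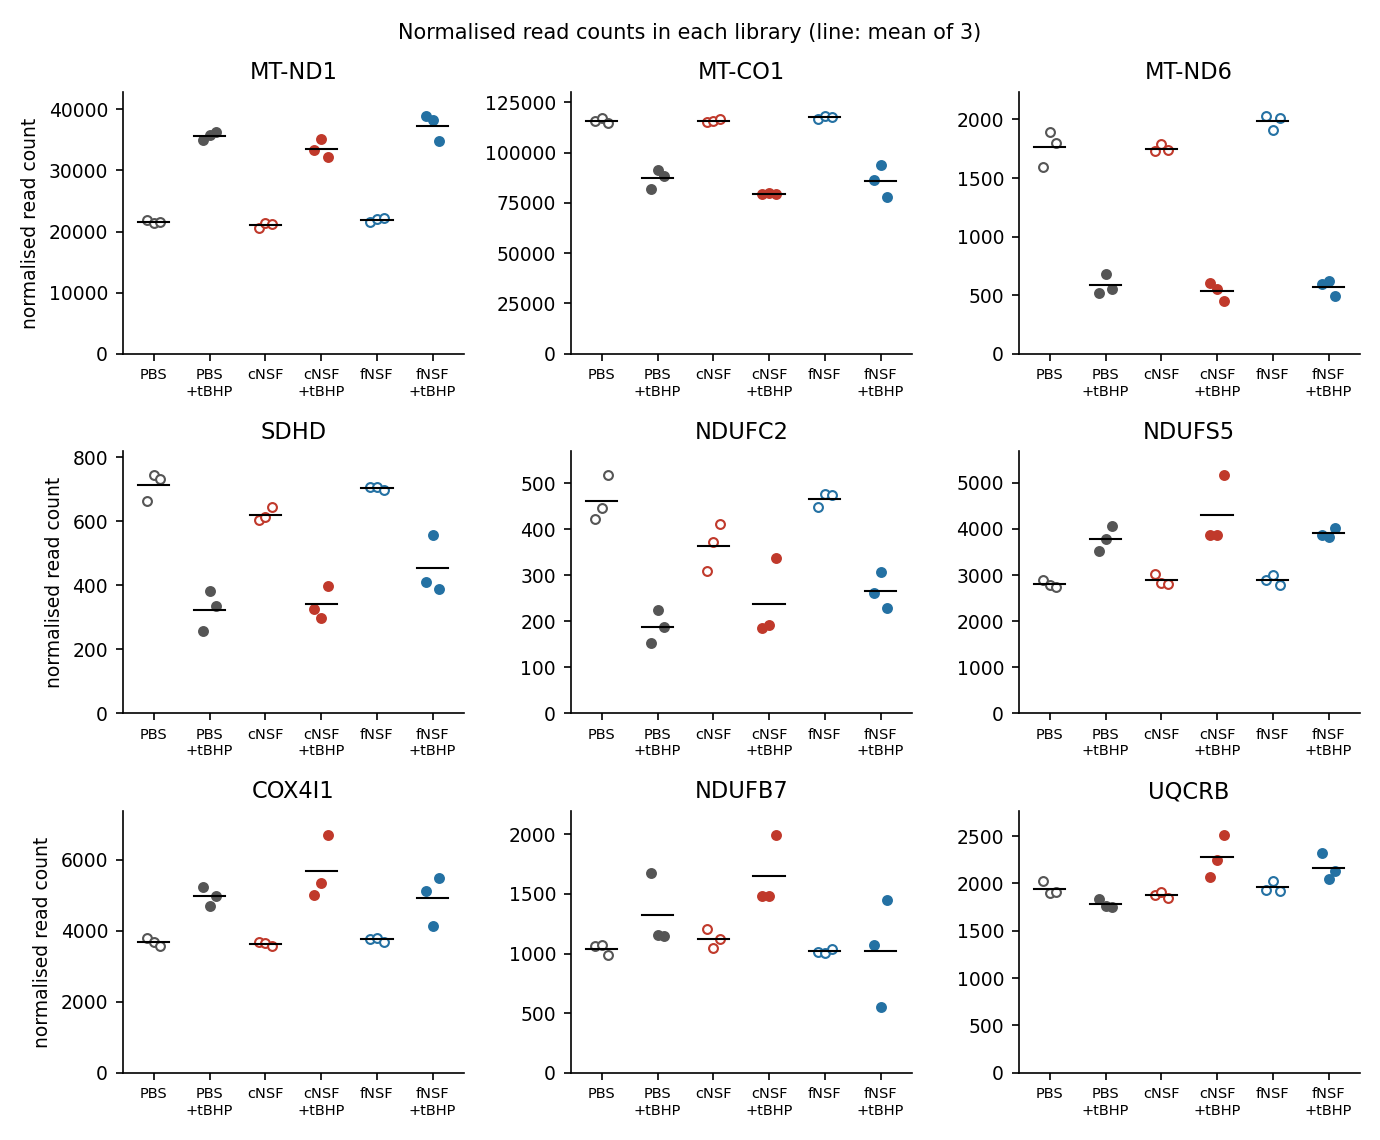
Normalised read counts (y axis, from 0) of 9 members in each of the 18 libraries, by group (x axis). Open points are libraries without tBHP, filled points those with it, and lines the mean of 3. MT-ND1 is higher and MT-CO1, MT-ND6 and SDHD are lower in all tBHP libraries than in all others, while NDUFB7 ranges from 549 to 1446 within fNSF-HA + tBHP.

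HA polymer length was compared within the tBHP and the untreated cells. No member was called by limma for cNSF-HA against fNSF-HA after tBHP, where 25 of 71 had an unadjusted p below 0.05, nor were any of the 13686 genes (0%, with 4412, or 32.2%, below 0.05). By edgeR no member was called. By DESeq2 3 of 69 members with an adjusted p were called, beside 9.26% of 9971 genes. The 5 members with the smallest p were NDUFB7, NDUFS7, NDUFS6, COX5B and NDUFV1, each with adjusted p = 0.0981. NDUFB7, a complex I subunit with a GC content of 65.0%, was 1482, 1481 and 1995 in cNSF-HA + tBHP and 1072, 549 and 1446 in fNSF-HA + tBHP libraries (log2 difference 0.79, SE 0.23). NDUFS7, an iron-sulfur subunit with a GC content of 60.8%, was 963, 1007 and 1341 against 640, 339 and 1056 (log2 difference 0.83, SE 0.25). The lowest value in both genes was in fNSF-HA + tBHP 2, and the groups were apart for NDUFB7 but overlapped for NDUFS7. NDUFS6, COX5B and NDUFV1 differed by 0.38, 0.49 and 0.45 (SE 0.12, 0.16 and 0.15). These sizes rested in part on single libraries. Without fNSF-HA + tBHP 2 the difference was 0.39 for NDUFB7, 0.41 for NDUFS7, 0.29 for COX5B and 0.19 for NDUFV1, and without cNSF-HA + tBHP 3 it was 0.23 for NDUFS6. Without fNSF-HA + tBHP 3, 29 of 71 members were called, beside 40.8% of all genes.

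All 13 mitochondrial genes had lower means with cNSF-HA than with fNSF-HA, both after tBHP (median log2 difference -0.16) and without it (median -0.08). Of the 13686 genes, 7331 were lower after tBHP and 7858 without it. After tBHP, 0 of the 13 were called by limma or edgeR and 1 by DESeq2, and 6 had an unadjusted p below 0.05, beside 32.2% of all genes. Without tBHP, 0 were called by limma, edgeR or DESeq2 with the 18 libraries fitted together, and 0 had an unadjusted p below 0.05. The mitochondrial mRNAs of a library share its scaling and are not independent of each other. After tBHP their summed share of reads was 2.22%, 2.18% and 2.18% with cNSF-HA and 2.44%, 2.71% and 2.20% with fNSF-HA. The libraries thus overlapped, and the highest share was that of fNSF-HA + tBHP 2.

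Against PBS after tBHP, no member was called by limma for cNSF-HA (13 below an unadjusted p of 0.05, 0 called by edgeR and 1 by DESeq2, with 0% of all genes called by limma and 0.0365% by DESeq2) or for fNSF-HA (9, 0 and 3, with 0.139% of all genes called by limma and 3.82% by DESeq2). The unadjusted p was below 0.05 for 8.64% and 22.7% of all genes. Without fNSF-HA + tBHP 3, 14 of 71 members were called for fNSF-HA against PBS, beside 29.4% of all genes, and without PBS + tBHP 2, 1 was, beside 1.25%. Without tBHP, no member had an unadjusted p below 0.05 or was called by limma, edgeR or DESeq2 in the 3 comparisons of HA and PBS, in which limma called 0% of all genes. The median SE of these differences over the nuclear genes was 0.10 in the fit of all 18 libraries, so that this fit could not detect differences of that size. Its shared estimate of the spread includes the more variable tBHP libraries (median SD 0.17, against 0.067 without tBHP). When the 6 libraries of cNSF-HA and fNSF-HA without tBHP were fitted alone, 13 of 71 members were called, beside 7.16% of all genes.

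The differences between the tBHP responses were also tested. No member was called for cNSF-HA against PBS, fNSF-HA against PBS or cNSF-HA against fNSF-HA by limma, edgeR or DESeq2 (5, 5 and 0 members and 4.06%, 6.88% and 3.89% of all genes below an unadjusted p of 0.05, and 0% of all genes called in each by limma). For cNSF-HA against PBS the smallest p-values were those of UQCRB, NDUFA12 and NDUFB1, with differences of 0.40, 0.38 and 0.39 (SE 0.10, 0.12 and 0.15, each adjusted p = 0.999). For fNSF-HA against PBS they were those of UQCRC2, UQCRB and SDHD, with 0.23, 0.26 and 0.50 (SE 0.09, 0.10 and 0.20, each adjusted p = 0.667). SDHD thus had a smaller mean fall in fNSF-HA than in PBS cells, but the difference did not pass the test. For cNSF-HA against fNSF-HA, NDUFB11, NDUFS6 and NDUFB7 came first, with 0.43, 0.33 and 0.65 (SE 0.21, 0.17 and 0.33, each adjusted p = 0.71). Without fNSF-HA + tBHP 2 the difference was 0.24 for NDUFB11 and 0.26 for NDUFB7, and without cNSF-HA + tBHP 3 it was 0.28 for NDUFB11 and 0.18 for NDUFS6.

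The other genes of the pathway were taken from lists written by hand, whose counts stand beside 24.2% of all genes higher and 26.9% lower in PBS cells. Among 19 subunit genes of complexes III, IV and V that were not members, 4 rose and 4 fell in PBS cells. COX6B1 of complex IV and ATP5I of complex V rose (log2 change 0.52 and 0.41), and USMG5 and ATP5C1 of complex V fell (-0.47 and -0.46). The 1 further complex I gene tested was not called. Among 3 tested alternative isoforms, NDUFA4L2 rose in PBS cells (log2 change 1.07, SE 0.32, adjusted p = 0.0101) at a low level of 46.7 ± 12.1 after tBHP.

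Of the assembly factors for complex I, 1 of 17 rose and 5 fell, with TMEM126B and TMEM126A at -0.72 and -0.67 and NDUFAF2 at 0.26. For complexes II to V, 5 of 34 rose and 10 fell, led by COA7 (-1.002) and COX11 (-0.81), while SURF1 and PET100 rose by 0.64 and 0.63. Of 30 genes for transcription, replication and RNA stability of mitochondrial DNA, 1 rose (TOP1MT, 0.47) and 14 fell in PBS cells, with 4 and 11 in cNSF-HA (26.8% of all genes lower) and 1 and 8 in fNSF-HA cells (22.7% lower). PNPT1, a mitochondrial RNA-processing exonuclease, was 1273 ± 17.2 in PBS and 400.0 ± 19.4 in PBS + tBHP cells (log2 change -1.67, SE 0.08), and MTERF2 fell by 1.35 on the log2 scale. TFAM, which packages mitochondrial DNA and starts its transcription, had a log2 change of -1.03, and LRPPRC, which stabilizes heavy-strand mRNAs, of -0.62, both called and named after their values were seen. Of 12 tested regulators of respiratory genes, 0 rose and 5 fell in PBS cells by limma, with NRIP1 and PPRC1 at -1.09 and -0.41.

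Among 13 citric acid cycle genes 3 rose, among them MDH2 (0.30), and 6 fell (DLD -0.66 and SUCLA2 -0.58 the most). Of 22 tested genes for electron carriers, uncoupling and ubiquinone synthesis 3 rose and 10 fell. AIFM2, a ubiquinone reductase, rose the most of the nuclear genes in these lists (345.0 ± 17.3 to 1015 ± 80.0, log2 change 1.55, SE 0.11), UCP2 rose by 0.51, and PDSS1 and SLC25A4 fell (-0.76 and -0.65). Of 14 mitochondrial proteases and chaperones, 4 rose and 3 fell. HSPA9 and LONP1 rose by 0.54 and 0.44, and HSPE1 and YME1L1 fell (-0.66 and -0.31). Of 6 tested mitochondrial rRNAs and nuclear copies, 4 rose and 1 fell. Of the nuclear RNAs followed as signs of RNA quality, NEAT1 rose by 0.32 in PBS cells and MALAT1 was not called (-0.08).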

How the data were processed

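Total RNA of 18 libraries (6 groups of 3) was poly(A)-selected and sequenced as single-end 100 nt reads with an unstranded kit. The submitters' processing notes name Trimmomatic 0.32, STAR 2.5.2b, featureCounts of Subread 1.5.0-p3, DESeq2 and the build GRCh38.p7, and the annotation release is not given in the sources used here. The deposited values are a signal, read counts that the authors divided by DESeq2 size factors. All values (100% within 0.01) were whole reads after the size factors were recovered. The deposited p-value, q-value and rank score columns come from the authors' own test and were not used. Columns of no sample numbered 0.

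Genes with a mean value of at least 10 (13686) were tested on log2(value + 1) with limma 3.58.1 in R 4.3.3, with 1 coefficient per group and the trend option, and p-values were adjusted over all genes tested (threshold 0.05). Shares of reads were compared with the exact permutation test. edgeR 4.0.16 and DESeq2 1.42.0 on the recovered reads, other pseudocounts, filters and normalizations, a replicate block, a fit of the groups compared alone, removal of the trend with GC content and length, and leaving out each library were alternatives, and leaving out cNSF-HA + tBHP 3 and fNSF-HA + tBHP 2 together was added after seeing the data. GC content and length came from GENCODE v29, with values for 93.6% of the genes tested, as did gene coordinates (GRCh38). Exon bases shared with other genes were counted, and 32 nuclear and 5 mitochondrial members shared some, so their counts are uncertain. The scripts were tested on simulated data. Chi-square per degree of freedom between replicates was 1.45 to 2.55 without tBHP and 2.72 to 64.8 after it, so no library was counted as a repeat.

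The members, the lists and the tests were chosen with earlier results of these data known. Named genes were all mitochondrial and complex II members, the 2 largest called rises and the 2 largest called falls in PBS cells in each other complex (the highest and lowest value where none was called) and in each other list, the 5 members with the smallest p for cNSF-HA against fNSF-HA after tBHP, the 3 with the smallest p for each difference of responses, and the highest levels per kilobase. Others named with values, among them NDUFB4, NDUFB6, COX5A, COX6C, TFAM, LRPPRC, NDUFV2, MALAT1 and the ratios, were chosen after their values were seen. Results that needed certain withheld items are not reported here.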

Additional observations from a re-analysis of the deposited data

Results flagged for a closer look

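In the 4 cases given here, every tBHP library of PBS cells went one way from its untreated mean and every tBHP library of an HA pre-incubation the other way. UQCRB, a subunit of complex III, had a mean log2 change of -0.12 in PBS, 0.27 in cNSF-HA and 0.14 in fNSF-HA cells. The difference from PBS was tested in limma and was 0.40 for cNSF-HA (adjusted p = 0.999) and 0.26 for fNSF-HA (adjusted p = 0.667). The sign in PBS cells turned with the GC and length trend removed (0.31). NDUFA12, an accessory subunit of complex I, had -0.04, 0.34 and 0.23, and differed from PBS by 0.38 for cNSF-HA (limma adjusted p = 0.999) and by 0.27 for fNSF-HA (adjusted p = 0.667). Its sign in PBS cells turned by edgeR (0.025). None of these 4 differences passed the test. Groups of 3 libraries were too small to look for outlying libraries by a critical value.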

How the results depend on the processing

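Of 846 values of 44 named-gene results under the alternatives, 790 kept direction and side of the threshold, 21 lost the call, 20 gained it and 15 turned sign. Of 546 values that answer a comparison, 42 moved. In PBS cells the nuclear genes that rose (13) numbered 21 by edgeR, 22 with the groups compared alone and 22 with both doubted libraries left out, where the share of all genes that rose also moved, from 24.2% to 29.7%, 27.6% and 30.7%, and those that fell (8) numbered 5 by edgeR and 5 to 7 without 1 library (5 without PBS 1 or PBS + tBHP 1). The nuclear median (0.13) was 0.17 with quantile normalization, 0.19 by edgeR, 0.092 with the GC and length trend removed and 0.097 to 0.17 without 1 library. The mitochondrial median (0.01) was -0.29 with quantile normalization and 0.076 by edgeR, and 2 mitochondrial genes rose with quantile normalization instead of 4. In cNSF-HA cells the nuclear genes that fell (3) numbered 7 with both libraries left out and 1 to 5 without 1 (1 without cNSF-HA + tBHP 1, 5 without cNSF-HA + tBHP 3), 5 mitochondrial genes rose by edgeR and 5 with the trend removed instead of 3, and the mitochondrial median (-0.07) was -0.35 with quantile normalization, -0.0077 by edgeR and -0.15 with the trend removed. In fNSF-HA cells the nuclear genes that rose (13) numbered 32 with both libraries left out and 9 to 26 without 1 (19.2% of all genes, against 26.9% and 15.6% to 24.4%), those that fell (3) numbered 7 with the trend removed, the mitochondrial genes that rose (5) numbered 3 without the filter and 3 with quantile normalization, those that fell (5) numbered 3 to 5 without 1 library (3 without fNSF-HA 1, 2 or 3 or fNSF-HA + tBHP 3), and the mitochondrial median (0.01) was -0.19 with quantile normalization. Members called for cNSF-HA against fNSF-HA after tBHP (0) numbered 3 by DESeq2 and 0 to 29 without 1 library, for cNSF-HA against PBS 1 by DESeq2, and for fNSF-HA against PBS 3 by DESeq2, 3 with both libraries left out and 0 to 14 without 1. Without tBHP, 13 were called for cNSF-HA against fNSF-HA with the groups compared alone. The cause was not tested.

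The sign in PBS cells turned for MT-CYB with quantile normalization (-0.29) and without PBS + tBHP 2 (-0.016 to 0.041 without 1 library), for SDHB by edgeR (0.025) and without PBS + tBHP 1 (-0.070 to 0.0066), for SDHC by edgeR (0.030), with the trend removed (0.20), and without PBS 3 or PBS + tBHP 1 (-0.064 to 0.011), for NDUFA5 with the trend removed (0.094), for COX7C by edgeR (0.037), with the trend removed (0.36), and without PBS 1 or PBS + tBHP 1 (-0.126 to 0.063), and for ATP5B with quantile normalization (-0.049) and with the trend removed (-0.086).

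The replicate numbers did not pair the libraries (19 of 45 correlations of same-numbered libraries were over 0.1, with a lowest of -0.32). With the replicate block, the nuclear genes that rose and fell numbered 13 and 8 in PBS, 30 and 3 in cNSF-HA and 12 and 3 in fNSF-HA cells, and 4, 4 and 5 mitochondrial genes rose. NDUFV2, NDUFA13 and the untested NDUFA7 had low counts and shared 28.4%, 21.0% and 33.5% of their exon bases with other genes. The cause of the low counts was not tested.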
